A study of Mus musculus with 14 samples.

Results

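The Hoxc cluster on mouse chromosome 15 holds 9 genes, Hoxc4, Hoxc5, Hoxc6, Hoxc8, Hoxc9, Hoxc10, Hoxc11, Hoxc12 and Hoxc13. Its H3K27me3 was followed over every peak within 5 kb of the RefSeq body of at least 1 of these genes, which gave 41 of 74458 peaks. Of these 41 peaks, 26 overlapped a gene body and 15 lay within 5 kb of more than 1 Hoxc gene, so that sums for adjacent genes share peaks. The peaks were chosen by position, with no measured value used. H3K27me3 was mapped by Cut&Tag, in which an antibody tethers the transposase Tn5 to the mark so that adapters are inserted beside it. The table held 3 libraries of mESCs with a Hoxa deletion, 2 with a Wnt6 deletion and 2 with an Hmx1 deletion. All 3 lines were made by CRISPR-Cas9 as homozygous deletions in G4 mESCs, an F1 hybrid line, and were kept with LIF on CD1 feeder cells. The Hoxa deletion takes out Hoxa2 to Hoxa13. The study asked whether removing a Polycomb loop anchor changes H3K27me3 elsewhere. None of the 3 deletions lies on chromosome 15, and the table has no unedited cells, so that every comparison is of a deletion with the other deletions. The labels name no clones and do not say that replicates are separate cultures, so that p-values measure only the spread between these libraries, which may be technical, and deletion and clone cannot be told apart.

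Hox genes encode homeodomain transcription factors whose order along the chromosome follows the order of their expression along the body axis. In embryonic stem cells the Hox clusters are silent and are textbook targets of the Polycomb repressive complexes: PRC2 trimethylates histone H3 at lysine 27, and PRC1 binds the mark and compacts the chromatin. The Hoxc genes act in the trunk, from the neck (Hoxc4 and Hoxc5) to the tail (Hoxc12 and Hoxc13), and all are read in the same direction, with Hoxc13 at the upstream end.

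The cluster also holds 2 miRNA genes, Mir196a-2 between Hoxc10 and Hoxc9, and Mir615 within the body of Hoxc5. The miR-196 family is known to repress Hox messages. Mature sequences from RefSeq (GRCm38.p6) are given because Mir196a-2 in the Hoxc cluster has a relative, Mir196b, in the stretch removed by the Hoxa deletion. Capitals mark the seed (bases 2 to 8).
miR-196a-5p (Mir196a-2, chr15:102973365-102973386, + strand): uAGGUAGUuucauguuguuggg
miR-196a-2-3p (Mir196a-2, chr15:102973401-102973422, + strand): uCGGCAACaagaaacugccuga
miR-615-5p (Mir615, chr15:103014926-103014947, + strand): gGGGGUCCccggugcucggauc
miR-615-3p (Mir615, chr15:103014969-103014990, + strand): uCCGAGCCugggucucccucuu
miR-196b-5p (Mir196b, chr6:52230129-52230150, - strand): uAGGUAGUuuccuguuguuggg
The seed AGGUAGU is shared by miR-196a-5p and miR-196b-5p, which differ by A12C, with positions counted from 1 at the 5′ end and the base of miR-196a-5p first. Neither arm of Mir615 has this seed.

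Of the 9 Hoxc genes, RefSeq promoter sequence was at hand for Hoxc4. It runs from 250 bases before to 50 after a listed start that lies inside the Hoxc4 body, and is shown because it lies wholly in a Hoxc4 peak described below (GRCm38.p6, chr15:103034145-103034444, + strand, CG dinucleotides in capitals).
Hoxc4 promoter: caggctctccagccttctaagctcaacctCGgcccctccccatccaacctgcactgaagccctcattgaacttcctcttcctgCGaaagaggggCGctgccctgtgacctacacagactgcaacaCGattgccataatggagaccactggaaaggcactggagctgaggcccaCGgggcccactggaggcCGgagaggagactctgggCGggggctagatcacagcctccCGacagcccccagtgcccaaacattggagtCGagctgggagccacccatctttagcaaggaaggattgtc
CG, which reads the same on both strands, was searched because CG-rich sequence is a known feature of Polycomb targets. The window holds 9 of them at a GC content of 60.3%, which is 0.333 of the number that its C and G content would give if bases were placed independently. Among 32851 promoters of the same length, 94.6% hold at least 1 CG, the median is 7, the median ratio is 0.384, and 54.2% hold fewer than the Hoxc4 window.

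Depth ranged from 6016500 to 36563541 counts per library over all peaks, and values are given as counts-per-million of these (CPM), scaled by TMM factors. The deleted genes were checked first: Hoxa9 lay between 0.235 and 0.650 CPM in the Hoxa deletion and between 235 and 269 CPM in the others, Wnt6 between 50.8 and 57.4 CPM in its deletion and between 485 and 543 CPM elsewhere, and Hmx1 at 17.4 and 18.1 CPM in its deletion and between 644 and 722 CPM elsewhere. Among 10 genes active in mESCs, 6 had a peak, with Pou5f1 at 5.10, Sox2 at 5.25, Nanog at 5.73, Zfp42 at 7.14, Klf4 at 11.8 and Esrrb at 19.2 CPM per kb of peak. Over all peaks the median was 7.74 CPM per kb, so that Klf4 and Esrrb were above it, and Klf4 had a log2 fold change of 0.61 in the Hoxa comparison (adjusted p = 4.17e-06 in edgeR), under the 2-fold minimum. Of 10 genes of feeder fibroblasts 7 had a peak, and their summed level lay between 659 and 670 CPM in the Hoxa, 633 and 710 CPM in the Wnt6 and 691 and 717 CPM in the Hmx1 deletion. Their part in the Hoxc values was not tested. In bulk libraries, fewer cells with the mark and less mark per cell cannot be told apart.

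H3K27me3 was dense over the Hoxc cluster in every library. The 41 peaks spread over 126 kb and covered 29.6% of it, and their width had a median of 773 bp (range 270 to 2194) against 476 bp over all peaks. They made up 0.0777% of the length of all peaks and took between 0.171% and 0.184% of the counts of a library. The median density was 44.3 CPM per kb over the Hoxc peaks and 7.74 CPM per kb over all peaks. All 41 Hoxc peaks were above the latter value, 33 were in the top decile of all peaks and 1 was in the top percentile. The peak list is the authors', and how it was built is not given in the sources used here, so that signal between peaks was not measured.

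The summed level of the cluster overlapped between the 3 deletions. In the Hoxa deletion it was 1856, 1753 and 1719 CPM (mean 1776 ± 71.4 SD over n = 3). In the Wnt6 deletion it was 1784 and 1648 CPM (mean 1716 ± 95.7 SD over n = 2). In the Hmx1 deletion it was 1742 and 1873 CPM (mean 1807 ± 93.0 SD over n = 2). The ranges of the 3 groups overlapped, and the lowest and highest library were a Wnt6 and an Hmx1 deletion. The deeper and the shallower library of a deletion differed by a median of -0.08 (Hoxa), -0.10 (Wnt6) and 0.08 (Hmx1) on the log2 scale over the 41 peaks, taking replicates 2 and 1 of each.

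**Figure D1:**
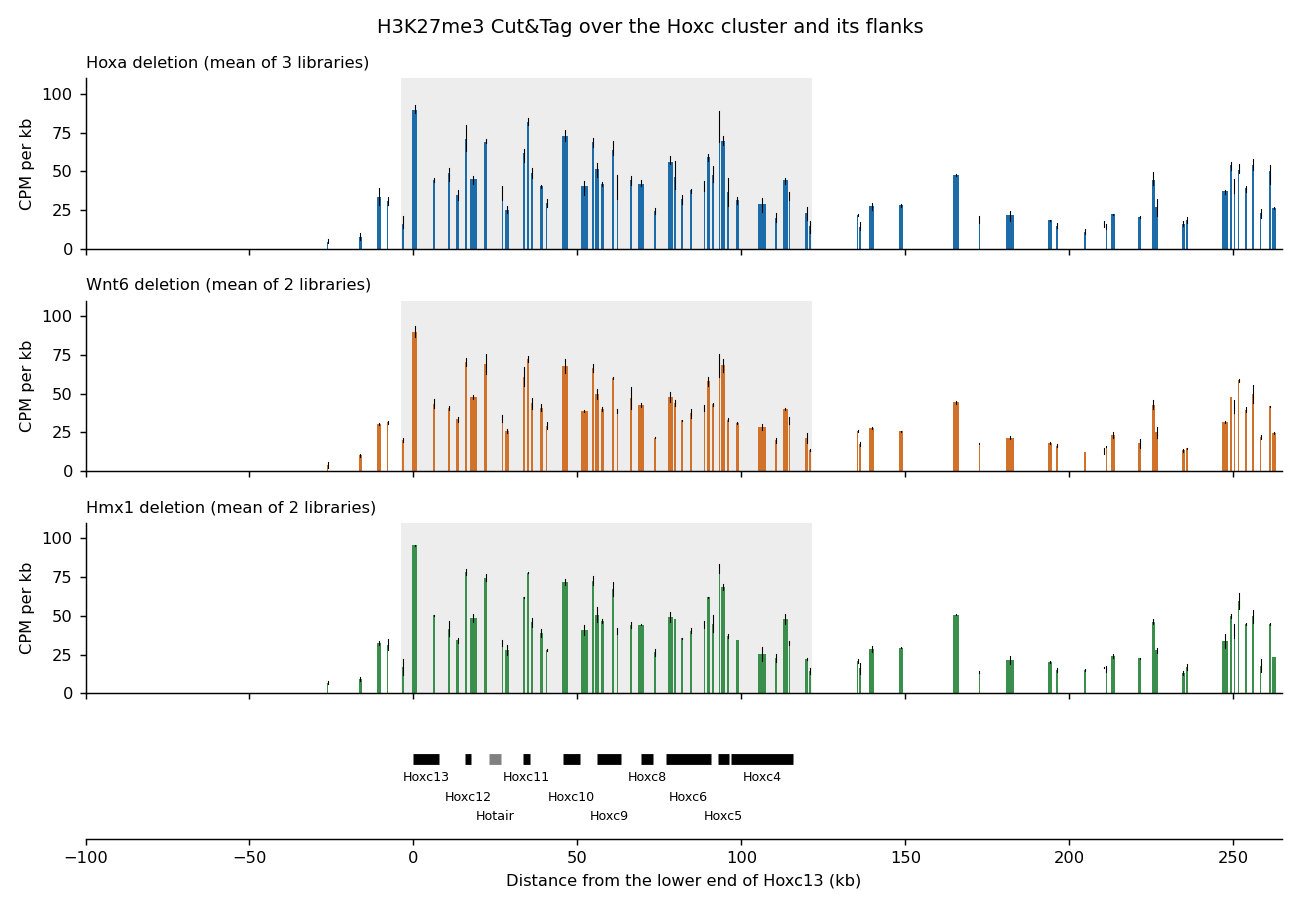
H3K27me3 density (CPM per kb of peak) of each peak against distance from the lower end of Hoxc13 (kb), with 1 panel for each deletion, bars at the mean of its libraries and thin lines from its lowest to its highest library. The shaded window holds the 41 Hoxc peaks, tallest at Hoxc13 in all 3 panels (from 89.8 CPM per kb in the Hoxa to 95.6 in the Hmx1 deletion), and the black blocks below are the Hoxc genes with Hotair in grey.

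Pooled over peaks, the posterior end carried more of the mark per kb of peak than the anterior end, which did not hold gene by gene. Peaks nearest to Hoxc10 to Hoxc13 (16 peaks) had 53.6 CPM per kb over the 7 libraries (49.98 to 56.6), those nearest to Hoxc8 and Hoxc9 (8 peaks) 46.8 CPM per kb (43.7 to 50.4), and those nearest to Hoxc4 to Hoxc6 (17 peaks) 40.2 CPM per kb (37.4 to 44.0). The order was the same in each of the 7 libraries, but the ranges of adjacent groups touched for the central and anterior genes and for the central and posterior genes. By gene, the level fell from Hoxc13 (60.4 CPM per kb) through Hoxc10 (53.8), Hoxc12 (52.4), Hoxc5 (51.6), Hoxc6 (49.3), Hoxc9 (47.7), Hoxc11 (46.7) and Hoxc8 (43.5) to Hoxc4 (36.5). Posterior Hoxc11 was thus below anterior Hoxc5 and Hoxc6, and Hoxc4 had the lowest level. The ranges over the libraries overlapped for all neighbours in this order. Within libraries, Hoxc13 was above Hoxc10, Hoxc5 above Hoxc6, Hoxc11 above Hoxc8 and Hoxc8 above Hoxc4 in 7 of 7. Hoxc12 was above Hoxc5 in only 4 of 7.

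The posterior genes come first. Hoxc13, which is known for its role in hair and nail formation, summed over 4 peaks to 238, 233 and 225 CPM in the Hoxa, 238 and 217 CPM in the Wnt6 and 235 and 247 CPM in the Hmx1 deletion. All 3 groups overlapped. Its densest peak (chr15:102920660-102922308), which spans the lower end of the gene body, was also the highest of the cluster. It held 153, 144 and 146 CPM in the Hoxa, 155 and 142 CPM in the Wnt6 and 158 and 157 CPM in the Hmx1 deletion. Both Hmx1 libraries lay above the other 5, with a log2 difference of 0.09 ± 0.07 (SE; adjusted p = 0.756 in edgeR). At 91.5 CPM per kb this peak was denser than 99.3% of all peaks.

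Hoxc12, a posterior gene of the trunk end, summed over 5 peaks to 300.1, 289 and 286 CPM in the Hoxa, 304 and 274 CPM in the Wnt6 and 292 and 316 CPM in the Hmx1 deletion. Hoxc11, which acts in the hindlimb and lower spine, summed over 6 peaks to 225, 217 and 221 CPM, to 219 and 205 CPM and to 212 and 223 CPM in the same order of deletions. Hoxc10, which takes part in the patterning of lumbar motor neurons, summed over 5 peaks to 335, 312 and 304 CPM, to 314 and 288 CPM and to 301 and 330.3 CPM. No deletion stood outside the range of the others at these genes. The densest peaks in their bodies had 72.7 (Hoxc12, chr15:102936860-102937530), 78.1 (Hoxc11, chr15:102955662-102956469) and 71.0 (Hoxc10, chr15:102966291-102968127) CPM per kb. The Hoxc11 peak was the only one of the 41 where 2 deletions each stood apart from the rest. It held 68.2, 64.3 and 66.4 CPM in the Hoxa, 56.8 and 59.8 CPM in the Wnt6 and 62.5 and 63.0 CPM in the Hmx1 deletion. Hoxa libraries were above and Wnt6 libraries below all others, by 0.13 ± 0.09 (SE; edgeR adjusted p = 0.445) and -0.15 ± 0.10 (SE; edgeR adjusted p = 0.920) on the log2 scale.

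The central genes had the same kind of spread. Hoxc9, which sets thoracic motor neuron identity, summed over 7 peaks to 300.1, 276 and 278 CPM in the Hoxa, 288 and 266 CPM in the Wnt6 and 275 and 309 CPM in the Hmx1 deletion. Hoxc8, a gene of brachial motor neurons and the thoracic skeleton, had the lowest sum of the 9 genes, over 4 peaks, at 185, 183 and 174 CPM, at 182 and 160.4 CPM and at 168 and 184 CPM. Groups overlapped at both genes. Their densest peaks in the gene body had 63.7 (Hoxc9, chr15:102981718-102982323) and 42.9 (Hoxc8, chr15:102989730-102991301) CPM per kb, and the latter varied little, from 63.9 to 70.5 CPM over the 7 libraries.

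The anterior genes closed the cluster. Hoxc6, which takes part in forelimb-level motor neuron patterning, summed over 11 peaks to 394, 355 and 358 CPM in the Hoxa, 356 and 334 CPM in the Wnt6 and 358 and 376 CPM in the Hmx1 deletion. For Hoxc5, which acts with its paralog Hoxa5 in the motor neurons of the diaphragm, the sum over 7 peaks was 262, 237 and 242 CPM, 243 and 230.1 CPM and 247 and 256 CPM. Hoxc4, the most anterior gene of the cluster, summed over 10 peaks to 367, 340.3 and 314 CPM, to 333 and 316 CPM and to 324 and 360 CPM. At none of these genes did a deletion lie outside the pooled range of the other 2. The densest peaks in their bodies had 59.5 (Hoxc6, chr15:103010651-103011489), 76.0 (Hoxc5, chr15:103014184-103014472) and 44.3 (Hoxc4, chr15:103033774-103035280) CPM per kb. The Hoxc4 peak holds the promoter window printed above, with 68.9, 68.6 and 63.5 CPM in the Hoxa, 59.6 and 61.5 CPM in the Wnt6 and 67.8 and 77.1 CPM in the Hmx1 deletion. Both Wnt6 libraries were the lowest there, by -0.19 ± 0.10 (SE; edgeR adjusted p = 0.920) on the log2 scale. The least dense peak of the cluster (14.3 CPM per kb) lay 4983 bp beyond Hoxc4.

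**Figure D2:**
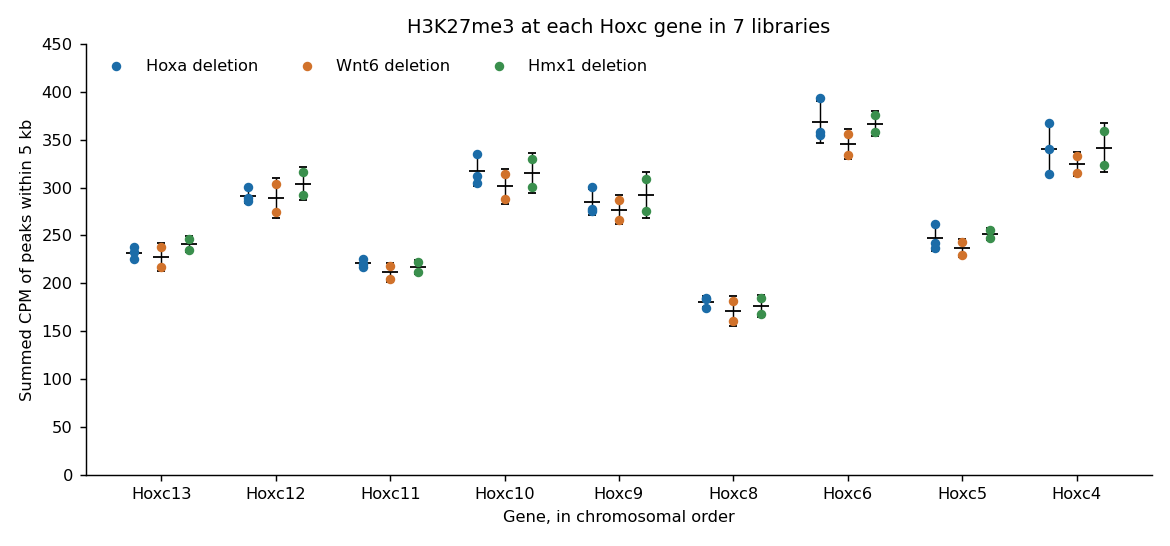
Summed H3K27me3 (CPM) of the peaks within 5 kb of each Hoxc gene, with 1 point for each of 7 libraries coloured by deletion, and the mean with its SD (n = 3, 2 and 2). Points of the 3 deletions intermingle at every gene, from Hoxc8 (160.4 to 185 CPM) to Hoxc6 (334 to 394 CPM).

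Over the 7 libraries the highest sum of a gene was 1.10 (Hoxc11) to 1.18 (Hoxc6) times its lowest. The mean of the Wnt6 deletion was the lowest of the 3 at all 9 genes, and the highest was that of the Hmx1 deletion at 5 genes and of the Hoxa deletion at 4. These sums share libraries and peaks and are not independent. The share of the cluster's signal in each gene's nearest peaks also stayed close, from 12.8% to 13.5% for Hoxc13 and from 11.2% to 12.7% for Hoxc4. The signal was uneven along the cluster, since the highest peak held 8.53% of it, the 5 highest 30.7% and the 10 highest 49.9%.

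No Hoxc peak passed the test for a change in any comparison. Each deletion was compared with the other 2 pooled by edgeR's quasi-likelihood test over 74441 peaks, and a peak was called at a fold change over 2 with a Benjamini-Hochberg adjusted p under 0.05. All 41 Hoxc peaks passed the filter on low counts, with a lowest single count of 45. The 3 comparisons share libraries, and their values are given side by side. Called Hoxc peaks numbered 0 of 41 in the Hoxa, the Wnt6 and the Hmx1 comparison, where 1.55%, 0.0497% and 0.0282% of all peaks were called. DESeq2 called 0 as well. At an unadjusted p under 0.05, edgeR and DESeq2 each had 2, 0 and 0 Hoxc peaks, beside 20.8%, 5.2% and 8.95% of all peaks by edgeR.

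The data bounded the size of differences between the deletions, given the spread between these libraries, which may be technical. Without unedited cells, a change shared by all the deletions would not be seen. A genome-wide change removed by the TMM factors would not be seen either. The 95% interval of the log2 fold change lay within a 2-fold change for all 41 Hoxc peaks in each comparison, against 79.7%, 76.9% and 71.6% of all peaks. Over the 41 peaks, intervals reached from -0.52 to 0.46 in the Hoxa, from -0.58 to 0.69 in the Wnt6 and from -0.48 to 0.56 in the Hmx1 comparison. Standard errors were smaller than over all peaks, with medians of 0.11, 0.13 and 0.13 against 0.22, 0.26 and 0.26 on the log2 scale. The median log2 fold change of the Hoxc peaks was 0.0045 (21 higher, 20 lower) in the Hoxa, -0.06 (7 higher, 34 lower) in the Wnt6 and 0.08 (27 higher, 14 lower) in the Hmx1 comparison, and that of all peaks was -0.0054, -0.0025 and -0.0062. The median of the other 2911 tested peaks of chromosome 15 was 0.03, -0.02 and -0.05, with 18, 0 and 0 of them called.

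**Figure D3:**
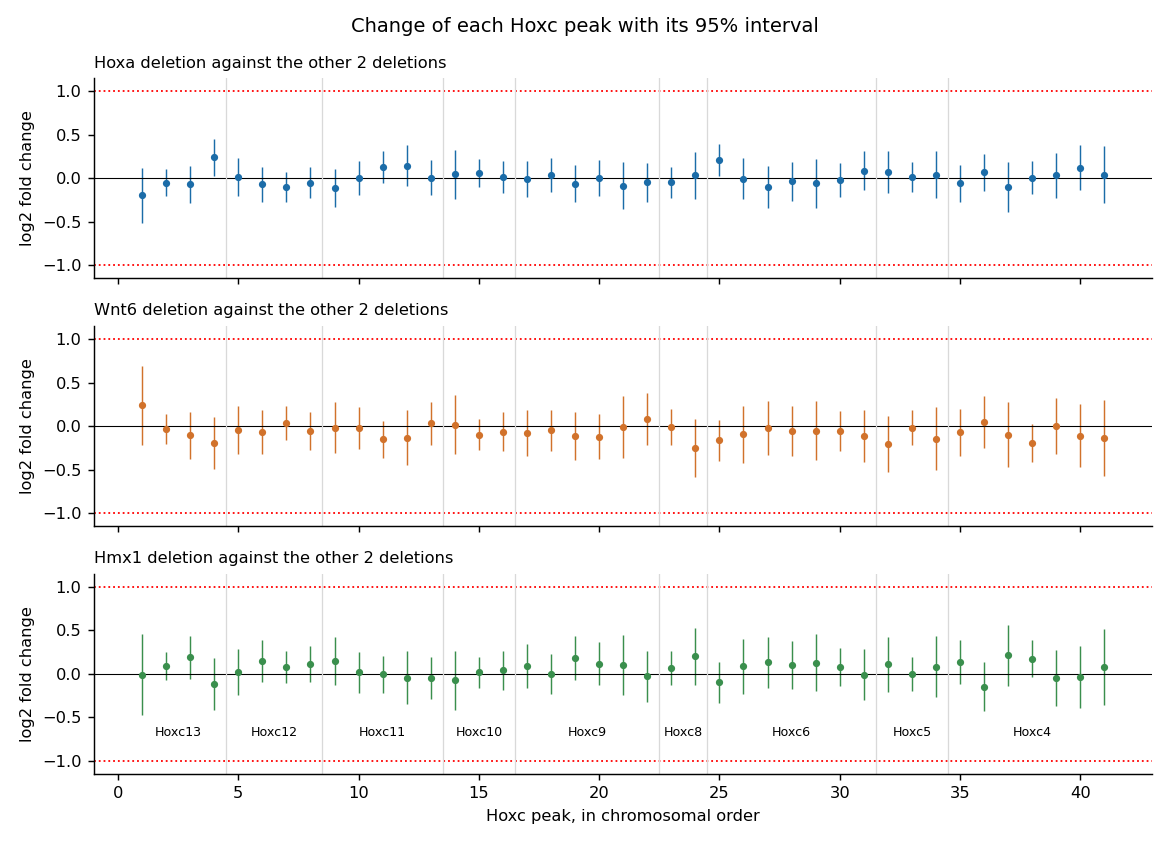
Log2 fold change of each of the 41 Hoxc peaks in chromosomal order (points) with its 95% interval (bars), for each deletion against the other 2 pooled, where red dotted lines mark a 2-fold change either way and gene names mark the nearest gene. Every interval stays between the red lines, the furthest reaching 0.69 at a peak by Hoxc13 in the Wnt6 comparison.

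The 2 peaks under an unadjusted p of 0.05 were both higher in the Hoxa deletion. A peak 2801 bp past the upper end of Hoxc13 (chr15:102931615-102932413) held 41.5, 41.2 and 35.1 CPM in the Hoxa, 33.5 and 31.4 CPM in the Wnt6 and 29.6 and 37.1 CPM in the Hmx1 deletion. The Hoxa and Hmx1 ranges overlapped, and the difference was 0.24 ± 0.11 in log2 (SE; adjusted p = 0.156 in edgeR). A peak in Hoxc6 (chr15:102998863-103000146) held 76.6, 69.9 and 70.2 CPM in the Hoxa, 65.6 and 57.5 CPM in the Wnt6 and 59.0 and 67.5 CPM in the Hmx1 deletion. All 3 Hoxa libraries were above the other 4, with a log2 difference of 0.21 ± 0.09 (SE; adjusted p = 0.167 in edgeR).

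Of the remaining peaks with the smallest p in a direction, that 2879 bp before the lower end of Hoxc13 (chr15:102917607-102918252) gave the lowest value of the Hoxa comparison, -0.20 ± 0.16 (SE; edgeR adjusted p = 0.535), and the highest of the Wnt6 comparison, 0.24 ± 0.21 (SE; edgeR adjusted p = 0.927). It held 8.93, 13.8 and 8.76 CPM in the Hoxa, 13.8 and 12.3 CPM in the Wnt6 and 7.77 and 14.1 CPM in the Hmx1 deletion. Both Hmx1 libraries were at its lowest and highest levels. In the Hmx1 comparison the Hoxc4 peak over the printed promoter was at 0.17 ± 0.10 (SE; edgeR adjusted p = 0.643), and another Hoxc4 peak (chr15:103026353-103028547) at -0.15 ± 0.14 (SE; edgeR adjusted p = 0.789). The latter held 72.4, 64.0 and 52.3 CPM in the Hoxa, 66.3 and 58.8 CPM in the Wnt6 and 46.1 and 66.0 CPM in the Hmx1 deletion. Its 3 groups overlapped widely.

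Libraries of 1 deletion lay wholly above or below the others at 2 of 41 Hoxc peaks for the Hoxa, 3 for the Wnt6 and 5 for the Hmx1 deletion, beside 18.3%, 10.1% and 15% of all peaks. The 2 Hoxa cases were the peaks in Hoxc11 and Hoxc6 given above, and the Wnt6 cases were those in Hoxc11 and Hoxc4 and a peak beside Hoxc8. All 5 Hmx1 cases, at Hoxc13 (2 peaks), Hoxc9, Hoxc6 and Hoxc4, were above the other deletions.

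Summed by gene, the bounds were tighter. Of the 9 Hoxc genes, edgeR called 0 in the Hoxa, Wnt6 and Hmx1 comparison over 27983 genes with peaks, where 0.722%, 0.0429% and 0.0286% of all genes were called, and DESeq2 called 0 of 9. No Hoxc gene had an unadjusted p under 0.05, beside 27.1%, 5.72% and 14.3% of all genes. The 95% interval lay within a 2-fold change for 9 of 9 in each comparison, against 90.4%, 89% and 85.3% of all genes. In the Hoxa comparison the log2 fold changes lay between -0.06 (Hoxc12) and 0.02 (Hoxc8), with intervals from -0.18 to 0.15. In the Wnt6 comparison they lay between -0.07 (Hoxc6) and -0.01 (Hoxc12), with intervals from -0.21 to 0.14. In the Hmx1 comparison they lay between 0.02 (Hoxc8) and 0.09 (Hoxc12), with intervals from -0.14 to 0.21.

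Deletions were also set against each other by pairs. Hoxc genes called were 0 of 9 for Hoxa against Wnt6, Hoxa against Hmx1 and Wnt6 against Hmx1, where 0.797%, 1.12% and 0.0858% of all genes were called, and 0 of 9 had an unadjusted p under 0.05. The widest difference was at Hoxc12 between the Hoxa and the Hmx1 deletion, -0.11 on the log2 scale (95% interval -0.22 to 0.0061, edgeR adjusted p = 0.197). In every pair the intervals of the 9 genes lay between -0.22 and 0.17.

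The miRNA genes of the cluster lay in peaks of 39.9 (Mir196a-2) and 68.9 (Mir615) CPM per kb. The median density was 44.3 CPM per kb over the Hoxc peaks and 7.74 over all peaks. The peak over Mir196a-2 (chr15:102972337-102974231) held 82.5, 80.1 and 66.2 CPM in the Hoxa, 74.6 and 72.2 CPM in the Wnt6 and 70.6 and 83.4 CPM in the Hmx1 deletion. The peak over Mir615 (chr15:103014822-103016012) held 86.9, 79.4 and 81.5 CPM, 86.3 and 76.4 CPM and 79.6 and 83.7 CPM. Neither was called, at log2 fold changes of 0.02, -0.06 and 0.04 for the first and 0.02, -0.02 and -0.0047 for the second in the Hoxa, Wnt6 and Hmx1 comparison. Over Mir196b, whose 5p arm shares its seed with that of Mir196a-2, the peak (chr6:52229641-52230855) held 0, 0.229 and 0.0644 CPM in the Hoxa deletion, in which it is deleted, and 81.1 and 73.3 CPM in the Wnt6 and 79.3 and 87.0 CPM in the Hmx1 deletion. The 0 allows up to 0.353 CPM (3 counts, counting error only). No peak held Mir196a-1, on chromosome 11, which encodes the same 5p sequence.

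**Figure D4:**
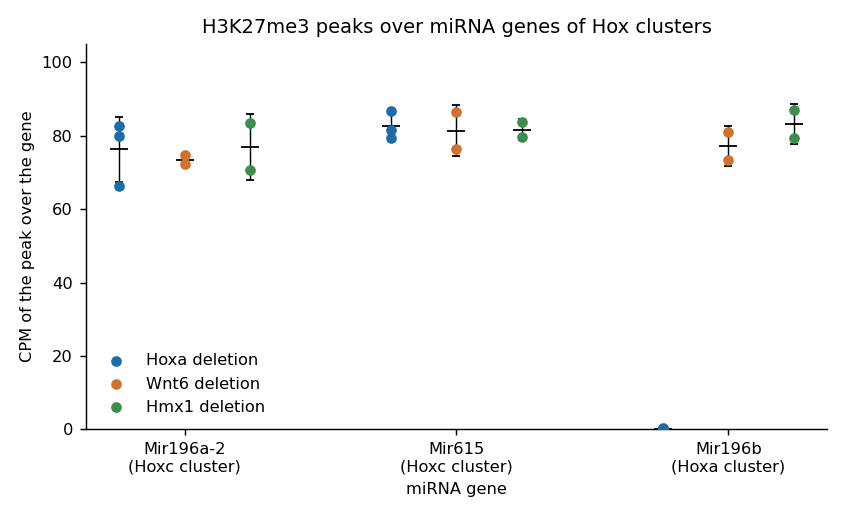
H3K27me3 (CPM) of the peak over each of 3 miRNA genes, with 1 point for each of 7 libraries coloured by deletion, and the mean with its SD. Mir196a-2 and Mir615 in the Hoxc cluster lie between 66.2 and 86.9 CPM in all libraries, while Mir196b is at 0 to 0.229 CPM in the Hoxa deletion, which removes it.

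Hotair, a long noncoding RNA gene read from the opposite strand between Hoxc12 and Hoxc11, had 4 peaks with a mean of 218 CPM and log2 fold changes of -0.11, 0.02 and 0.11 in the Hoxa, Wnt6 and Hmx1 comparison (edgeR adjusted p = 0.237, 0.986 and 0.481). Most of these peaks are Hoxc peaks already summed at Hoxc12 or Hoxc11, so that Hotair is not a separate measurement. Of 16 genes inside or beside the cluster that were looked up in RefSeq, 15 had a peak, and 0 were called in any comparison. These 15 are not all separate measurements, since Mir615 has the same sum as Hoxc5 and Mir196a-2 has only Hoxc peaks. The share called over all genes was 0.722%, 0.0429% and 0.0286%. Beyond the Hoxc13 end, 100 kb held 4 peaks with 23.2 CPM per kb of peak, which covered 2.67% of it. Beyond the Hoxc4 end, 100 kb held 13 peaks with 25.4 CPM per kb, which covered 12.5%. Pooled over its peaks, each flank was less dense than any Hoxc gene. Single peaks were not all so, since a peak in the Hoxc4 flank held 43.6 to 50.9 CPM per kb. Dense peaks also lay past that flank, such as that 248.9 kb from the lower end of Hoxc13, at 47.7 to 56.0 CPM per kb. In the flanks 0 peaks were called or had an unadjusted p under 0.05, where 20.8%, 5.2% and 8.95% of all peaks had such a p. Further out, Nfe2, Gpr84 and Zfp385a start 211, 271 and 277 kb beyond Hoxc4 and encode an erythroid transcription factor, a fatty acid receptor and a zinc finger protein. In the Hoxa comparison their log2 fold changes were 0.39, 0.36 and 0.29 (adjusted p = 0.0146, 2.28e-04 and 0.00221 in edgeR). In the Wnt6 comparison they were -0.22, -0.14 and -0.06, and in the Hmx1 comparison -0.29, -0.31 and -0.31 (adjusted p = 0.441, 0.241 and 0.195 in edgeR). These differences were under the 2-fold minimum of a call. Gpr84 and Zfp385a lie within 5 kb of each other, so that their sums may share peaks. On the same side in the Hoxa comparison, Smug1 was at 0.07, Cbx5 and Hnrnpa1, which have the same 1 peak, at 0.15 and Copz1 at 0.14. Adjusted p in edgeR was 0.526 (Smug1), 0.606 (Cbx5 and Hnrnpa1) and 0.562 (Copz1). Over all genes, 27.1% had an unadjusted p under 0.05 in that comparison.

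Genes that act above or with Hox proteins were taken as a list of 19, all with peaks, and 0 were called in any comparison. The list includes Hotair, whose sum shares peaks with Hoxc genes. Over all genes the share called was 0.722%, 0.0429% and 0.0286% in the Hoxa, Wnt6 and Hmx1 comparison. Cdx2, which encodes an activator of trunk Hox genes, had 70.1 CPM per kb and log2 fold changes of -0.05, -0.07 and 0.13. Cyp26a1, which degrades retinoic acid, had 67.8 CPM per kb and -0.02, -0.06 and 0.07. Among Hox cofactors, Pbx4 had a log2 fold change of -0.70 in the Hoxa deletion (adjusted p = 3.11e-06 in edgeR), under the 2-fold minimum, while Meis1 was at -0.06 (edgeR adjusted p = 0.535). The median of the list was -0.05, -0.02 and 0.07, against 0.0030, -0.0036 and -0.01 over all genes and -0.0085, -0.04 and 0.06 over the 9 Hoxc genes.

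Set beside the other Hox clusters, the Hoxc peaks had 47.4 CPM per kb over 7 libraries (44.2 to 50.3), Hoxb 49.1 (46.3 to 51.8) and Hoxd 56.0 (52.3 to 59.8), and Hoxa had 48.0 (44.9 to 50.9) in the 4 libraries that keep it. The Hoxc range overlapped those of Hoxa and Hoxb and lay wholly below that of Hoxd, and the ratio of Hoxc to Hoxd was between 0.837 and 0.857 in every library. Peaks covered 29.6% of the Hoxc span, 18.8% of the Hoxb, 31.9% of the Hoxd and 36.0% of the Hoxa span. In the Hoxa comparison 0 of 45 Hoxb and 0 of 34 Hoxd peaks were called, as at Hoxc, where only 1.55% of all peaks were called. The medians in that comparison were 0.02 (Hoxb) and 0.0041 (Hoxd) on the log2 scale. Medians were -0.05 (Hoxb) and -0.06 (Hoxd) in the Wnt6 and 0.03 and 0.07 in the Hmx1 comparison, beside -0.06 and 0.08 for Hoxc. In the Hoxa deletion itself, 43 of 45 Hoxa peaks were called lower.

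Among 18655 genes off chromosome 15 with at least 100 counts on average, those whose log2 CPM over the 7 libraries most resembled the summed Hoxc level were Msx3 (Pearson r = 0.999), Gm32943 (0.994), Evx1os (0.994), H60b (0.994) and Tmem132b (0.987). The summed Hoxc level spanned 0.18 on the log2 scale, the points share library, depth and scaling, and the values are a description of these 7 libraries.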

How the data were processed

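H3K27me3 and IgG Cut&Tag libraries were made from mESCs with 3 deletions. The authors deposited 1 table of raw counts over 74458 peaks for the 7 H3K27me3 libraries, without normalization, and IgG libraries were not analysed here. The submitters' processing notes name mm10, Bowtie2, Trimmomatic, SAMtools, Picard, MACS2 and deepTools without roles. How peaks were merged, whether duplicates were removed and whether reads or fragments were counted is not given in the sources used here. The study speaks of 3 replicates of a clone for each deletion, while Wnt6 and Hmx1 each have 2 columns here. Columns were matched to samples by title. Peak positions are printed as deposited, and the convention for the start is not stated, but the same peaks were chosen under either convention. The RefSeq gene table (GRCm38.p6) has no exons, so that exonic or intronic position is not given.

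Analyses used R 4.3.3, edgeR 4.0.16, limma 3.58.1, GenomicRanges 1.54.1 and DESeq2 1.42.0, with plots in Python 3.11.15 (pandas 2.3.3, matplotlib 3.10.9). Low counts were removed with filterByExpr, grouped by genotype (17 peaks), and TMM factors set the scale. A quasi-likelihood fit (glmQLFit, glmQLFTest) over all remaining peaks tested each deletion against the other 2 pooled, and calls needed a log2 fold change beyond 1 either way with p under 0.05 after Benjamini-Hochberg adjustment. Standard errors were derived from the F statistic and 95% intervals from the t distribution. Gene values sum the peaks within 5 kb of a gene body, and pairs of deletions were compared in a fit with a term for each genotype. Levels in CPM per kb divide by the length of the peaks. The script was tested on simulated data. Totals ran from 6016500 to 36563541 counts per library. PCR reads carry no molecular identifiers, and the limit given for a peak without counts covers counting error only. The 95% intervals come from the fit, which also takes in the spread between these libraries.

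Named peaks were the densest overlapping each gene, those with the smallest p in each direction of a comparison, any called peak and the peak over a printed promoter. Peaks over miRNA genes, the second Hoxa peak under an unadjusted p of 0.05 and peaks with groups that do not overlap were named after their values were seen. The same holds for Nfe2, Gpr84 and Zfp385a. The members, gene lists and tests were chosen with earlier results of these data known. Alternatives were DESeq2, RLE factors, library totals, no filter, a minimum mean count of 20, genotype terms, single deletions as the comparison, a replicate block, downsampling, leaving out each library, no fold minimum, windows of 0 and 20 kb, and removal of chromosome medians.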

Additional observations from a re-analysis of the deposited data

How the results depend on the processing

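No Hoxc peak or gene was called in any of 63 alternative values for peaks and 57 for genes. Each alternative setting enters these once for each comparison. Of 60 alternative medians of the Hoxc peaks, 59 moved by less than the spread between libraries (0.06 on the log2 scale). The exception was the Hoxa deletion set against the Hmx1 deletion alone, at -0.066 in place of 0.0045, and the cause was not tested. Leaving out 1 library in turn gave medians from -0.04 to 0.02 in the Hoxa, -0.11 to -0.01 in the Wnt6 and 0.03 to 0.09 in the Hmx1 comparison, so that the sign of the Hoxa median depends on the libraries used, and it was also -0.04 with chromosome medians removed. Among 486 alternative values for single Hoxc genes, 62 had the other sign and none was called. With the replicate number as a block the medians were 0.0055, -0.07 and 0.04 and the calls over all peaks 1070, 37 and 20, against 1153, 37 and 21 without it. The numbers were not taken to pair the libraries: the labels tie them to no shared batch, and same-numbered libraries correlated between -0.04 and 0.08 in their deviations from group means (6 pairs). These values are not independent, since the deviations in a group of 2 mirror each other. Depth did follow the replicate number. Replicate 1 was the shallowest library of its deletion (8656908 counts in the Hoxa, 9982841 in the Wnt6 and 6016500 in the Hmx1 deletion). Replicate 2 was the deepest (25595584, 36563541 and 25798208 in the same order). Whether same-numbered libraries share a batch was not tested. Precision was limited by groups of 2 and 3 libraries and by counts: the SE in the Hoxa comparison was 0.08 at the Hoxc13 peak with a mean count of 2746 and 0.17 at the Hoxc4 peak with 160.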
